A study of Mus musculus with 15 samples.

Results

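Stat3 and 8 genes described as direct STAT3 response genes (Socs3, Bcl3, Pim1, Myc, Cebpd, Cebpb, Mcl1 and Bcl2l1) were followed through RNA-Seq of NMuMG cells. NMuMG is an epithelial line from normal mouse mammary gland. The members were chosen by gene name. All 9 were listed once in each of the 2 expression tables, among 13893 genes in Dataset 1 and 15023 genes in Dataset 2. All 9 passed the filter on low values (a mean of at least 0.5 CPM, the authors' depth-normalised read count) in both datasets. In GENCODE M21 (GRCm38) the members and the 3 genes targeted in the study (Pcbp1, Fam3c and Lifr) were placed as follows. On the minus strand were Stat3 at chr11:100885098-100939540, Socs3 at chr11:117966079-117970047, Bcl3 at chr7:19808462-19822770, Bcl2l1 at chr2:152780668-152831728, Pcbp1 at chr6:86524492-86526321 and Fam3c at chr6:22306520-22356243. On the plus strand were Pim1 at chr17:29490753-29496112, Myc at chr15:61985391-61990374, Cebpd at chr16:15887286-15891031, Cebpb at chr2:167688915-167690418, Mcl1 at chr3:95658788-95663176 and Lifr at chr15:7090614-7197489.

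Dataset 1 held 11 libraries, each from a single RNA sample of a single cell line, and every line carried an shRNA against PCBP1. The shPCBP1 group was the unaltered knockdown line and CT clones 1 to 3, which received Cas9 without a guide to a gene. The FAM3C KO group was 3 clones and the LIFR KO group 3 clones, made with guide pairs that cut out a short stretch of coding sequence, and 1 FAM3C/LIFR double KO line completed the set. Dataset 2 held 2 libraries of NMuMG cells without treatment in the labels (called shSCR by the study, here NMuMG control) and 2 of shPCBP1 cells. Each knockout line grew from a single colony, so differences between clones and effects of the knockout cannot be told apart within 1 library. Replicate libraries were not stated to come from separate cultures, so p-values measure the spread between these libraries.

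STAT3 is a transcription factor that is held inactive in the cytoplasm until Janus kinases, bound to receptors of the IL-6 family such as the LIFR and gp130 pair, phosphorylate it. It then enters the nucleus as a dimer, binds palindromic TTCNNNGAA elements and raises transcription of a set of early genes, among them its own gene and Socs3, whose product shuts the kinases down. In the mammary gland STAT3 is known for driving the loss of the milk-producing epithelium after weaning. The measurements here are of mRNA levels and do not measure phosphorylated STAT3.

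Promoter sequences are shown for Socs3, the feedback inhibitor, because its window was the only member window holding the STAT palindrome, and for Stat3 as a contrast. RefSeq promoter windows (GRCm38.p6) matched 7 of the 9 members, with 10 windows between them, and none was matched for Myc and Cebpd. Windows of 250 bases before to 50 bases after each listed start were searched on both strands for TTCNNNGAA and for the longer TTCCNGGAA, which is contained in the first motif and like it reads the same on either strand. TTCNNNGAA was in 1 of the 10 member windows and in 8.3% of the 32851 windows of the table, and TTCCNGGAA was in 0 of 10 and in 1.15%. The 250 bases before each start are printed 5′ to 3′ on the gene's strand, with the palindrome in capitals.
Socs3, chr11:117969367-117969616, minus strand: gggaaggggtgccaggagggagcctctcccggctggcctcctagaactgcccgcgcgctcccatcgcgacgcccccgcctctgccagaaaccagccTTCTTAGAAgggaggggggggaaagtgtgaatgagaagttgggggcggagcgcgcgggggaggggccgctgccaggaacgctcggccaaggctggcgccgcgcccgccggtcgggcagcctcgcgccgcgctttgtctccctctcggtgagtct
Stat3, chr11:100939541-100939790, minus strand: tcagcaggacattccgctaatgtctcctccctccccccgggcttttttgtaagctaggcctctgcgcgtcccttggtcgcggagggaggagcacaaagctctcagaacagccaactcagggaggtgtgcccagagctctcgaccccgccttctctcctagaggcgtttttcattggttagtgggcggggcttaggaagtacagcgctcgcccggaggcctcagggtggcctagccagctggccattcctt

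The Socs3 palindrome lay at chr11:117969512-117969520, 146 to 154 bases before the listed RefSeq start. In GENCODE M21 it was 326 to 334 bases upstream of the start of the coding Socs3 transcript and 61 to 69 bases upstream of a noncoding one, and in an intron of the longer noncoding transcript. Of the printed window 77 bases were exonic, all in a noncoding transcript. The Stat3 window held no exon of the gene. A match is a description of letters, and a window without one says nothing about STAT3 binding.

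The study's own qPCR primers for 2 members are shown because they place its mRNA assay on the same transcripts. The study reported that a STAT3 inhibitor affected the mRNA of both in shPCBP1 cells, a treatment that is not among the libraries here. The Stat3 pair gives a product of 97 bases in coding sequence of exons 4 and 5, and the Myc pair a product of 86 bases, with its forward primer across the junction of exons 2 and 3. Positions are from exact matches to GENCODE M21 transcripts (GRCm38). Both primers were found in 4 of 14 annotated Stat3 transcripts and in 7 of 8 Myc transcripts.
Stat3 forward, chr11:100908011-100908031: aagagtctcgcctcctccaga
Stat3 reverse, chr11:100905873-100905895: atctgctgcttctctgtcactac
Myc forward, chr15:61988267-61988278 joined to chr15:61989346-61989354: gcagcgactctgaagaagagc
Myc reverse, chr15:61989400-61989419: cgacctcttggcaggggttt

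Epithelial markers (7 of the 10 chosen had an entry in each dataset) summed to 1228 CPM or more in every library. Epcam and Cldn3 had no entry in either dataset, Cldn4 none in Dataset 1 and Cldn7 none in Dataset 2. Immune markers reached at most 10.9 CPM, endothelial markers at most 2 CPM and adipocyte markers at most 0.751 CPM in any library. LIFR KO clones 2 and 3 and the double KO stood apart from the other 8 libraries of Dataset 1. In them mitochondrially encoded mRNAs made up 5.09%, 5.21% and 6.04% of counted reads, against 2.47% to 3.07% elsewhere. Across genes, Spearman's rho of GC content with the log2 departure from the shPCBP1 average was -0.76, -0.74 and -0.70 in these 3, against -0.29 to 0.24 in the others. For the members, the LIFR KO comparisons are therefore also given without clones 2 and 3 and after a correction for GC content. In Dataset 1 the low values step by a constant amount in each library, the CPM of 1 counted read, which gives totals of 16031859 to 46901675 reads. The members' values there rest on 69 to 9640 reads. Dataset 2 shows no such step, and its depth is unknown.

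Per kilobase of exon, Cebpb was the most abundant member in the shPCBP1 lines of Dataset 1, at 110 ± 11.6 CPM per kb (SD, n = 4). Mcl1 followed at 60.2 ± 4.16 and Myc at 54.4 ± 3.98, then Bcl2l1 at 42.8 ± 2.56 and Socs3 at 40.7 ± 4.98 CPM per kb. Bcl3 stood at 8.4 ± 1.44, Stat3 at 6.8 ± 0.267, Pim1 at 3.94 ± 0.577 and Cebpd at 1.8 ± 0.284 CPM per kb. The ranges of Mcl1 and Myc, of Bcl2l1 and Socs3, and of Bcl3 and Stat3 overlapped between lines, and the other neighbours in this order did not. In the Dataset 2 controls Cebpb was the fifth of the 9, at 14.1 ± 2.74 CPM per kb (SD, n = 2). There Mcl1, at 36.6 ± 0.778 CPM per kb, was highest and Cebpd, at 0.276 ± 0.00481, was lowest. The 2 tables were normalised separately, so levels were not compared between them.

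**Figure D1:**
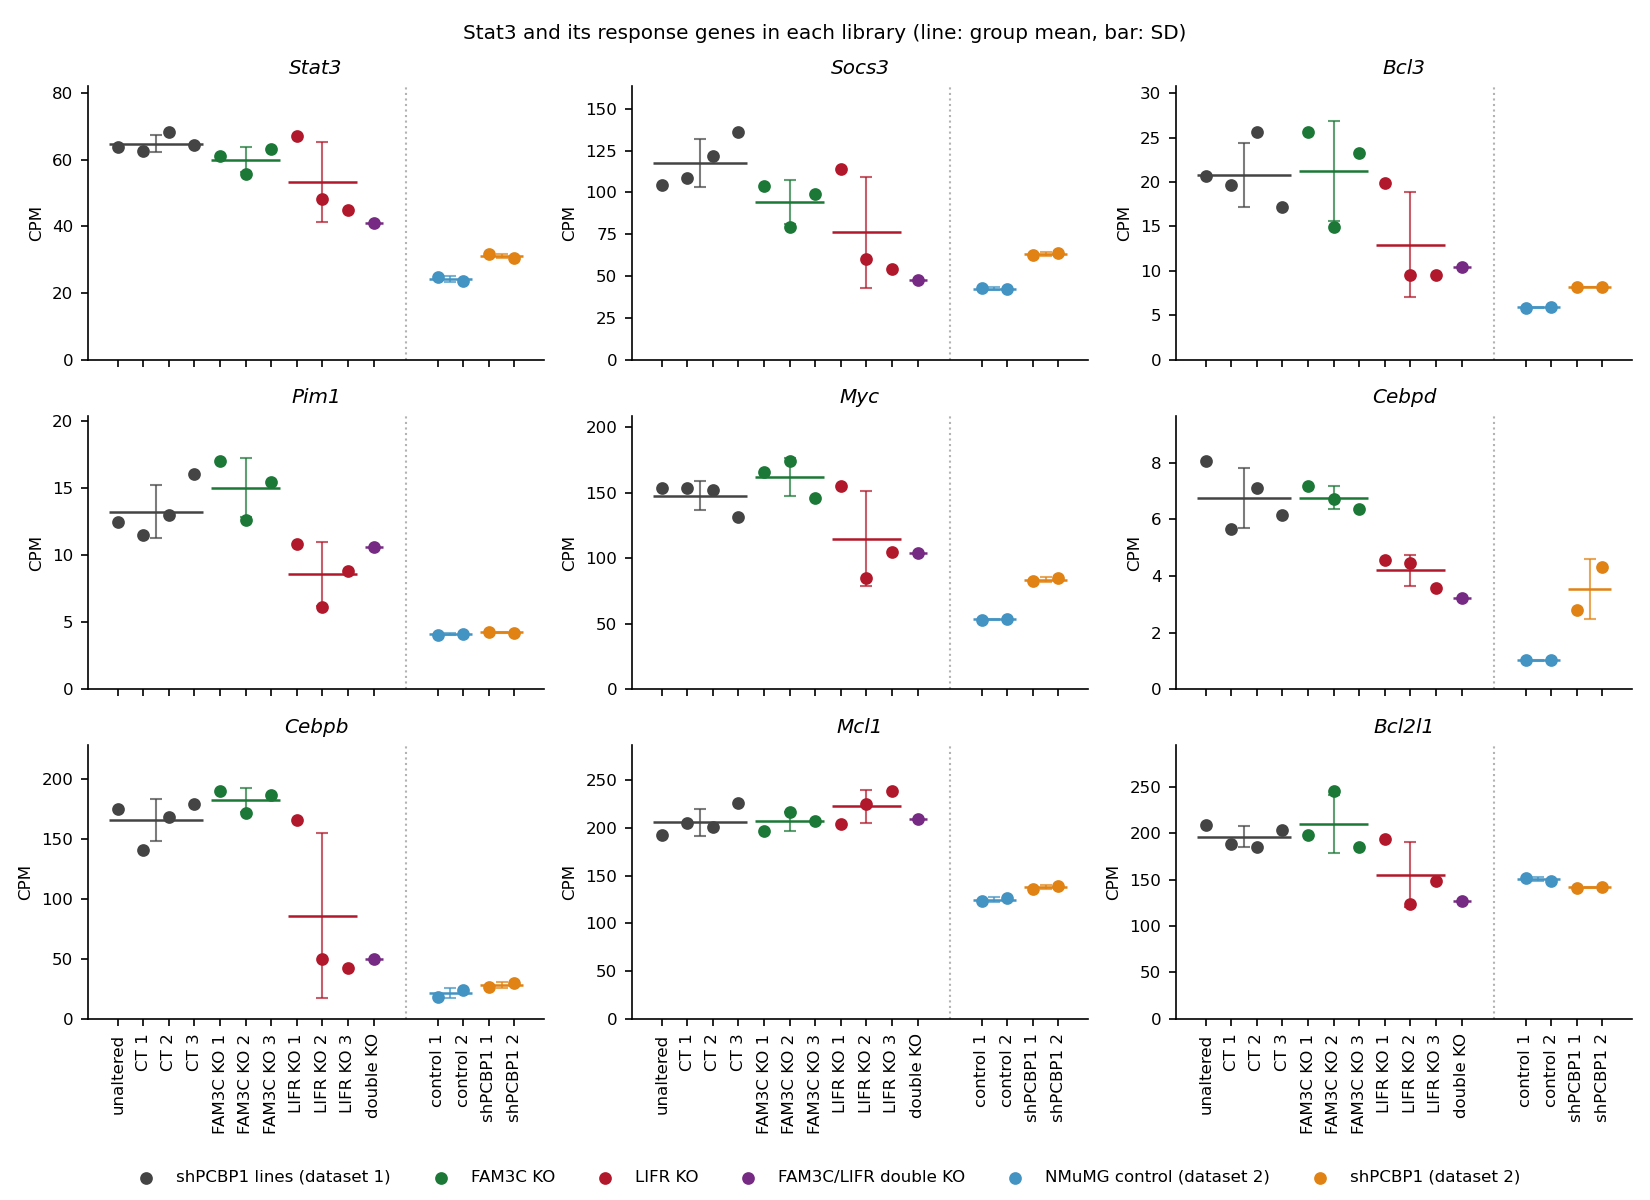
CPM of each member in each library, with Dataset 1 left and Dataset 2 right of the dotted line, points for libraries, horizontal lines for group means and bars for the SD. Stat3 sat at 44.9 and 48.25 CPM in LIFR KO clones 3 and 2 and at 41.0 CPM in the double KO, below the 4 shPCBP1 lines, while clone 1 was at 67.2 CPM.

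The first comparison asked what happened to the members when PCBP1, an RNA-binding repressor of translation and of epithelial-to-mesenchymal transition, was knocked down. Pcbp1 itself was at 287 and 312 CPM in the NMuMG control libraries and at 14.1 and 14.2 CPM in the shPCBP1 libraries of Dataset 2. Of the 9 members, 7 rose and 1 fell with PCBP1 knockdown, and 1 did not pass the test. The test was limma on log2(CPM + 0.1), with a Benjamini-Hochberg adjusted p under 0.07 as the threshold, which the study used. Of the 11384 genes tested 42.1% passed as higher and 38.0% as lower, so most genes changed and the count of members has to be read against that. The median log2 fold change was 0.42 over the members and 0.02 over all genes tested.

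Stat3 mRNA was at 24.9 and 23.5 CPM in the control libraries and at 31.6 and 30.6 CPM in the shPCBP1 libraries. The difference was 0.36 ± 0.0428 on the log2 scale (SE, limma adjusted p = 1.46e-05), a 1.28-fold increase. Socs3, the suppressor of cytokine signalling that binds gp130 and its kinases, was at 42.9 and 42.0 CPM in controls and at 62.4 and 63.9 CPM after knockdown. It rose by 0.57 ± 0.0306 on the log2 scale (limma adjusted p = 1.78e-08).

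Among the transcription regulators, Cebpd had the largest log2 difference of the 9 members. CEBPD is an early, STAT3-dependent factor of the acute-phase response and of mammary involution. Its mRNA was at 1.05 and 1.02 CPM in controls and at 2.79 and 4.30 CPM in shPCBP1 cells, a difference of 1.65 ± 0.181 (limma adjusted p = 7.33e-06). The shPCBP1 replicates differed from each other more than in any other member, and both lay well above the controls. Myc, the growth and cell-cycle factor, was at 52.8 and 53.8 CPM in controls and 82.4 and 84.8 CPM in shPCBP1 cells, a difference of 0.65 ± 0.0286 (limma adjusted p = 3.55e-09). Cebpb, a relative of Cebpd with roles in mammary epithelial fate, was at 18.3 and 24.2 CPM in controls and at 26.3 and 30.3 CPM in shPCBP1 cells. The Cebpb difference was 0.42 ± 0.105 (limma adjusted p = 0.00359), and without shPCBP1 replicate 2 it was no longer past the threshold (adjusted p = 0.178, range over 9 alternatives 2.49e-09 to 0.178), nor without a filter on low values (adjusted p = 0.0897). Bcl3, an atypical IkB protein that partners NF-kB subunits, was at 5.84 and 5.94 CPM in controls and at 8.15 and 8.22 CPM after knockdown, a difference of 0.47 ± 0.0752 (limma adjusted p = 0.000163).

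Among the survival genes the changes were smaller and went both ways. Mcl1, an anti-apoptotic BCL2 relative with a short-lived protein, was at 123.1 and 126.8 CPM in controls and at 136.3 and 139.1 CPM in shPCBP1 cells, a log2 difference of 0.14 ± 0.0251 (limma adjusted p = 0.000371). Bcl2l1, which encodes BCL-XL, fell from 152.1 and 148.8 CPM to 141.2 and 141.9 CPM, a log2 difference of -0.09 ± 0.023 (limma adjusted p = 0.00468). Pim1, a serine/threonine kinase that promotes survival, was at 4.06 and 4.15 CPM in controls and at 4.24 and 4.23 CPM in shPCBP1 cells. Its log2 difference was 0.04 with a 95% interval of -0.16 to 0.25 (limma adjusted p = 0.673). The control and shPCBP1 libraries did not overlap for any of the 9 members, and this held for 89.0% of all genes tested.

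**Figure D2:**
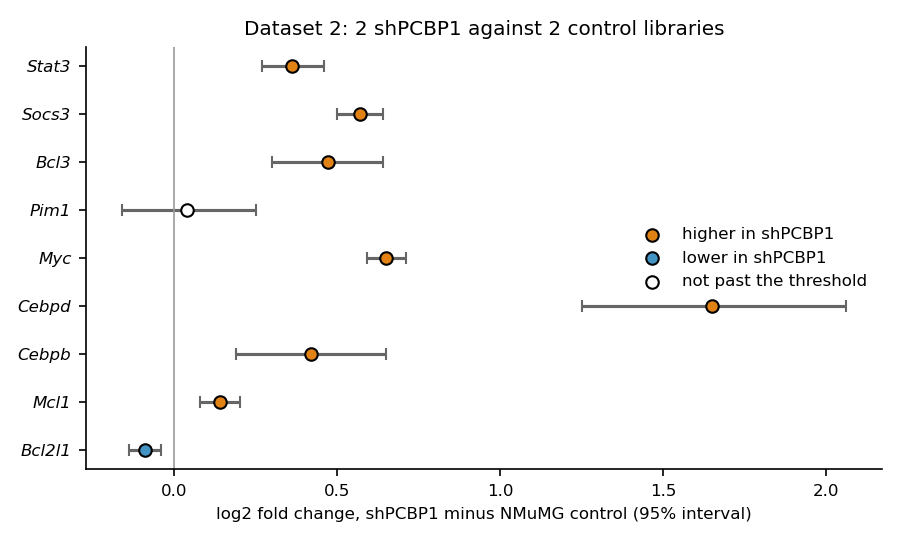
Log2 fold change of each member, shPCBP1 minus NMuMG control in Dataset 2 (2 libraries each), with 95% intervals from limma. Cebpd stood farthest from 0 at 1.65, Bcl2l1 lay below 0 at -0.09, and the interval of Pim1 (-0.16 to 0.25) included 0.

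When a fold of at least 1.5 was asked for as well, 2 members remained past the threshold, Myc at 1.57-fold and Cebpd at 3.15-fold, where 16.0% of all genes were higher by this rule. With 2 libraries against 2, an exact two-sided permutation test of a single gene cannot give a p under 0.333, so these calls rest on the fit across all genes. Mesenchymal marker mRNAs moved with the same contrast: their summed level was 536 to 557 CPM in controls and 1316 to 1351 CPM in shPCBP1 cells, and 7 of 7 tested were higher. Epithelial markers summed to 2954 to 3007 CPM in controls and 2776 to 2833 CPM in shPCBP1 cells, with 1 higher and 5 lower of 6 tested. The part of this shift in the members' changes was not tested, and in bulk RNA a change in the share of cells of a kind and a change in RNA per cell cannot be told apart.

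Upstream of STAT3 are the ligands and receptors of the IL-6 family, and Fam3c was counted here with the ligands. Of the 5 ligands tested 3 were higher and 2 lower, and of 4 receptors 3 were higher and 1 lower, in a comparison where 42.1% of all genes were higher and 38.0% lower. Fam3c was among the lower ligands, at 25.0 and 26.55 CPM in controls and at 20.9 and 19.55 CPM in shPCBP1 libraries. The study describes FAM3C as upregulated after PCBP1 loss through increased translation, which mRNA levels do not measure. Lifr, counted among the receptors, was listed at 0 in both control libraries and at 2.94 and 2.40 CPM in shPCBP1 libraries. Il11, a ligand that signals through gp130, was at 0.124 and 0.170 CPM in controls and at 6.36 and 6.62 CPM after knockdown, a log2 difference of 4.74 ± 0.152 (limma adjusted p = 2.99e-10). Of the 5 kinases, 2 were higher and 3 lower. The inhibitors other than Socs3 were divided, with 5 higher, 5 lower and 5 not past the threshold of 15.

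Beyond the members, 27 of 32 further STAT3 response genes were tested, of which 15 were higher, 9 lower and 3 not past the threshold. The list holds Mmp2 and Twist1, which the study had already named from these same data. Mmp2, a matrix metalloproteinase, was listed at 0 in both controls and at 2.17 and 2.37 CPM in shPCBP1 cells. Fos, an immediate-early factor, went the other way, from 1.74 and 1.94 CPM to 0.609 and 0.610 CPM (log2 difference -1.45 ± 0.147, limma adjusted p = 4.07e-06). For these genes too the shares over all genes, 42.1% higher and 38.0% lower, are the background. Of 4 further C/EBP genes 1 was higher and 3 lower, and of 10 further BCL2-family genes 1 was higher and 6 lower. Cebpa fell from 9.90 and 10.8 CPM to 2.65 and 2.90 CPM, a log2 difference of -1.86 ± 0.0925 (limma adjusted p = 9.71e-09), opposite in direction to Cebpb and Cebpd. Bmf, a pro-apoptotic BH3-only gene, fell from 187.7 and 186.6 CPM to 46.5 and 49.4 CPM, a log2 difference of -1.96 ± 0.0307 (limma adjusted p = 2.07e-12). Of 8 genes of the MYC network 4 were higher and 3 lower, 1 of 2 further PIM kinases was higher, and of 5 NF-kB subunits 2 were higher and 1 lower. Of the 5 other STAT genes tested 1 was higher and 2 lower.

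The second comparison asked what FAM3C KO did to the members in cells with PCBP1 already knocked down. FAM3C, also called ILEI, is a secreted protein reported to act through LIFR. Fam3c mRNA was at 26.4, 33.9 and 42.9 CPM in FAM3C KO clones 1 to 3 and at 47.0 to 59.4 CPM in the 4 shPCBP1 lines. Gene-level CPM counts the whole transcript, of which only a short stretch was excised, so it is no check of the knockout. None of the 9 members passed the threshold (limma, 0 of 9, and 0 of 9 at an unadjusted p under 0.05), where 0.309% of 12621 genes did, in either direction. At an unadjusted p under 0.05 there were 1286 genes. The spread behind these tests and intervals was shared by the 3 groups of Dataset 1, the LIFR KO clones included. For Cebpb the SD on the log2 scale was 0.16 in shPCBP1 lines, 0.08 in FAM3C KO and 1.07 in LIFR KO. With FAM3C KO and shPCBP1 lines fitted alone many more genes passed, but still 0 of the 9 members. The study reported a lower STAT3 reporter signal in FAM3C KO cells, which is a measure of STAT3 activity and not of these mRNAs.

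Stat3 measured 63.75 CPM in the unaltered line and 62.6, 68.45 and 64.35 CPM in the 3 CT clones. The FAM3C KO clones, in order, had 61.0, 55.9 and 63.1 CPM, so clone 2 and, by a small margin, clone 1 lay below every shPCBP1 line. The log2 difference was -0.11 with a 95% interval of -0.41 to 0.18 (limma adjusted p = 0.891, exact two-sided permutation p = 0.0857). Socs3 measured 104.5 CPM in the unaltered line and 108.3, 121.6 and 136.3 CPM in the CT clones. The FAM3C KO clones had 104.0, 79.4 and 99.3 CPM, below all 4 shPCBP1 lines, though clone 1 was within 1 CPM of the unaltered line. The log2 difference was -0.32 with an interval of -0.83 to 0.19 (limma adjusted p = 0.746, exact permutation p = 0.0571). Socs3 was the only member whose 2 groups did not overlap here, and 12.5% of all genes were likewise lower without overlap.

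The other 7 members overlapped between FAM3C KO and shPCBP1 lines. Bcl3 was at 25.6, 14.9 and 23.3 CPM in FAM3C KO clones 1 to 3, against 20.65 CPM in the unaltered line and 19.6, 25.7 and 17.2 CPM in the CT clones. Pim1 was at 17.01, 12.66 and 15.4 CPM against 12.49 CPM and 11.5, 13.0 and 16.0 CPM in the same order. Myc was at 165.6, 174.0 and 146.0 CPM against 153.8 CPM and 153.4, 152.3 and 131.6 CPM. For these 3 genes the spread between clones was as wide as the difference of the means. Cebpd was at 7.17, 6.72 and 6.37 CPM in FAM3C KO clones, against 8.05 CPM in the unaltered line and 5.65, 7.12 and 6.14 CPM in CT clones. Cebpb was at 189.9, 171.1 and 186.2 CPM, against 175.2 CPM and 140.3, 168.1 and 178.8 CPM. The intervals of the log2 difference were -0.35 to 0.38 for Cebpd and -0.68 to 0.97 for Cebpb. The Cebpb interval is wide enough to hold a change of 0.42 in either direction. That is the size of its difference in Dataset 2, which is another contrast.

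Mcl1 and Bcl2l1, the survival genes, also overlapped. Mcl1 was at 196.8, 216.2 and 207.4 CPM in FAM3C KO clones, against 192.1 CPM in the unaltered line and 205.5, 200.3 and 225.6 CPM in CT clones. Bcl2l1 was at 198.5, 245.5 and 185.5 CPM, against 209.0 CPM and 188.3, 184.6 and 203.5 CPM. The Mcl1 interval, -0.20 to 0.22, was the narrowest of the 9, and FAM3C KO clone 2 was the highest of all 11 libraries for Bcl2l1.

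After the GC correction, 1 member was past the threshold in this comparison, where 1.03% of 12603 genes passed as higher. Cebpb was higher by 0.42 ± 0.0835 in FAM3C KO (limma adjusted p = 0.055, range over 19 alternatives 0.055 to 1), and its corrected values in the 3 clones were 0.38, 0.40 and 0.48 above the shPCBP1 mean. Cebpb has the highest GC content of the members, 67.2% over its longest transcript, and of the 9 it moved most under the correction. Of 92 pathway genes tested in Dataset 1, 1 was lower without the correction, and 3 were higher and 3 lower after it, where 1.03% of all genes were higher and 0.849% lower. Mmp2 was at 0.0886, 0.440 and 0.0384 CPM in FAM3C KO clones and at 1.07 to 12.85 CPM in the 4 shPCBP1 lines (log2 difference -4.13 ± 0.727, limma adjusted p = 0.0662). The 3 KO values stand at 2, 11 and 1 reads, and the last is its library's lowest value, which cannot be told apart from no reads. The size of this difference therefore depends on the pseudocount, and with a pseudocount of 1 CPM it was not past the threshold.

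The third comparison asked the same of LIFR KO, the receptor through which FAM3C and LIF are reported to reach STAT3. It shares its shPCBP1 lines with the FAM3C KO comparison, so the 2 are not independent. Lifr measured 34.9, 29.3 and 14.6 CPM in the 3 LIFR KO clones in order, against 25.8 to 40.2 CPM in shPCBP1 lines, and as above this is no check of the excision. The FAM3C KO clones had 13.51, 10.5 and 19.2 CPM of Lifr, below all shPCBP1 lines (log2 difference -1.18 ± 0.302, limma adjusted p = 0.175, exact permutation p = 0.0286, the smallest possible). The limma p rests on a spread shared with the LIFR KO clones, which differed in Lifr. The study called this fall significant by DESeq and also saw it by qPCR and immunoblot in some clones. It further reported that re-expressing FAM3C in a knockout line raised LIFR. Of the 9 members 1, Cebpd, fell in LIFR KO and 8 did not pass the threshold, where 5.55% of all genes passed as lower. At an unadjusted p under 0.05, 8 members were lower, as were 27.3% of all genes. The median log2 fold change of the members was -0.65, while that of all genes was -0.16. Epithelial markers summed to 1228 to 2111 CPM in LIFR KO clones against 2480 to 3185 CPM in shPCBP1 lines, and mesenchymal markers to 1285 to 1939 CPM against 1776 to 2027 CPM. Their part in the result was not tested.

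Cebpd measured 4.57, 4.46 and 3.56 CPM in the LIFR KO clones in order and 3.23 CPM in the double KO. All 4 lay below the lowest shPCBP1 line, at 5.65 CPM. The log2 difference between LIFR KO and shPCBP1 was -0.67 ± 0.164 (limma adjusted p = 0.0543, exact permutation p = 0.0286, the smallest possible for 4 against 3). After GC correction it was -0.38 ± 0.148 (adjusted p = 0.228), and with LIFR KO clones 2 and 3 left out together it was -0.54 ± 0.205 (adjusted p = 0.315). Over 19 alternatives it ran from -0.74 to -0.29, with the adjusted p between 0.00552 and 0.411 and past the threshold in 4. Among the fits that left out a single library, it passed only without LIFR KO clone 1. LIFR KO clone 1, whose GC relation was like that of the shPCBP1 lines, was 0.54 below the shPCBP1 mean before and 0.47 below it after the correction.

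For most other members the group mean joined a clone near the shPCBP1 lines with a pair of clones far below them. Stat3 was at 67.2 CPM in LIFR KO clone 1 and at 48.25 and 44.9 CPM in clones 2 and 3. Socs3 was at 114.0 CPM in clone 1 and at 59.9 and 54.2 CPM in clones 2 and 3. Bcl3 was at 19.85 CPM in clone 1 and at 9.52 CPM in each of clones 2 and 3. Clone 1 lay inside the shPCBP1 range for all 3 genes, and clones 2 and 3 lay below it. Cebpb showed the widest split, with 165.6 CPM in clone 1 and 50.0 and 42.7 CPM in clones 2 and 3. Myc was at 155.1 CPM in clone 1, above every shPCBP1 line, and at 84.7 and 104.7 CPM in clones 2 and 3. Bcl2l1 was at 193.3 CPM in clone 1 and at 123.7 and 148.8 CPM in clones 2 and 3.

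Pim1 was also lowest in clones 2 and 3, but clone 1 lay just under the shPCBP1 range. Pim1 was at 10.9, 6.11 and 8.83 CPM in clones 1 to 3, all below the lowest shPCBP1 line at 11.5 CPM (log2 difference -0.65 ± 0.202, limma adjusted p = 0.0816, exact permutation p = 0.0286). After GC correction the clones were at -0.22, -0.36 and 0.10 from the shPCBP1 mean. Cebpd and Pim1 were the 2 members whose groups did not overlap, and 13.2% of all genes were likewise lower without overlap. Mcl1 was at 204.3, 224.8 and 238.6 CPM, a log2 difference of 0.11 with an interval of -0.09 to 0.32. It has the lowest GC content of the members, 48.7%.

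Many other genes were low in the same clones. In each of these 2 clones 8 of 9 members lay below all 4 shPCBP1 lines, and so did 53.5% and 52.0% of all genes tested. In clone 1 it was 2 members and 28.0% of genes. Without clone 1, 8 members were past the threshold as lower in LIFR KO, among 40.0% of all genes, and with clones 2 and 3 left out together none was. After the GC correction 0 of 9 members were past the threshold (limma, with 1 higher and 1 lower at an unadjusted p under 0.05), where 0.349% of genes passed in either direction. The median over the members was then -0.03, and 4 members were higher and 5 lower in sign. The corrected log2 differences were 0.02 ± 0.0686 for Stat3, -0.09 ± 0.111 for Socs3 and -0.11 ± 0.0835 for Cebpb. Rescaling all libraries by median ratios moved the median of all genes to -0.01 and left that of the members at -0.49. Whether the GC relation arose in the cells or in the libraries was not tested.

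**Figure D3:**
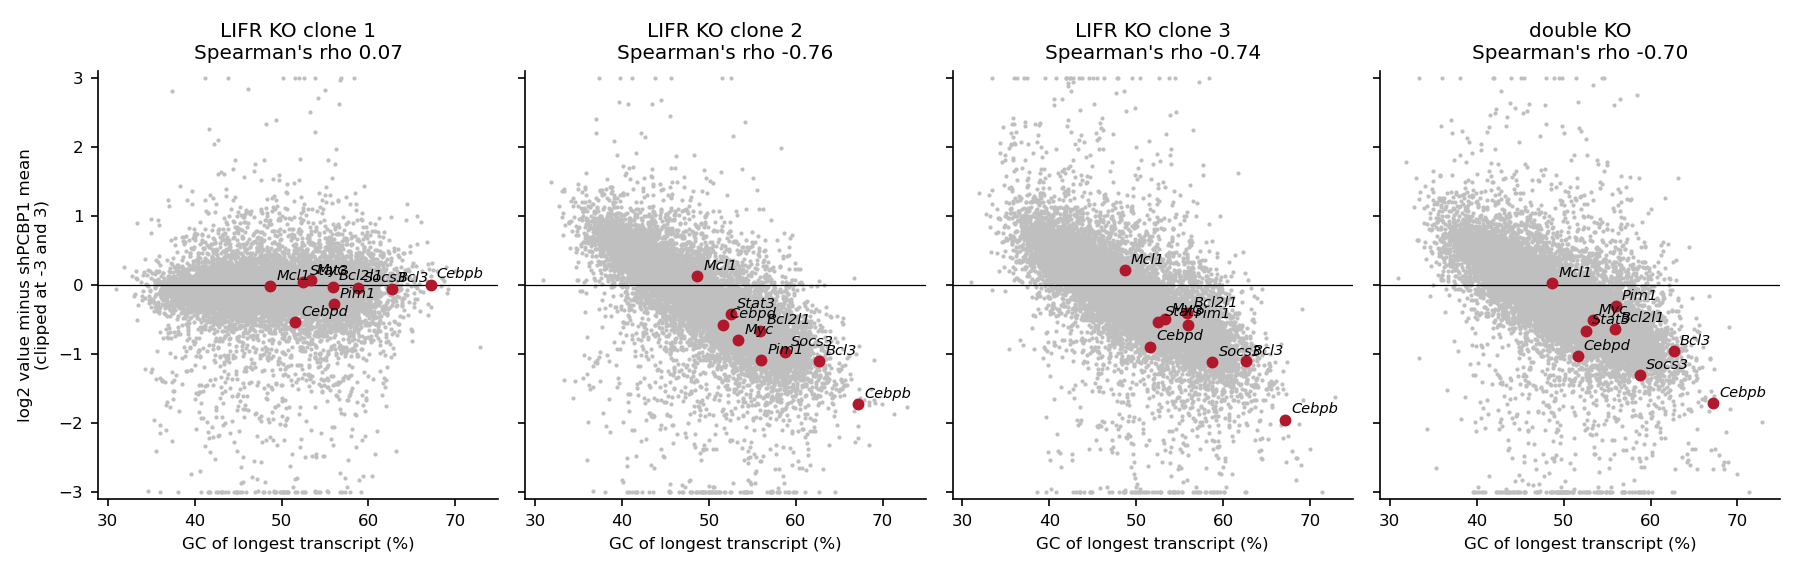
GC content of the longest transcript (percent) against each library's log2 departure from the average of the shPCBP1 lines for all genes tested (grey) and the 9 members (red), in the 3 LIFR KO clones and the double KO, with values clipped at -3 and 3. The grey cloud was flat in clone 1 (rho 0.07) and sloped down in clones 2 and 3 and the double KO (rho -0.76, -0.74 and -0.70), with the members inside it.

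The double KO was a single library and entered no test. Its 9 values were Stat3 41.0, Socs3 47.5, Bcl3 10.5, Pim1 10.6, Myc 103.7, Cebpd 3.23, Cebpb 50.2, Mcl1 209.7 and Bcl2l1 127.0 CPM. Of these 8 lay below all 4 shPCBP1 lines, as did 53.8% of all genes, and Mcl1 lay within their range. Cebpd, the lowest, rests on 69 reads, with an exact 95% binomial interval of 2.52 to 4.09 CPM that covers counting error only. After GC correction the largest departures from the shPCBP1 mean were Cebpd at -0.63 and Socs3 at -0.49 on the log2 scale, while Myc and Bcl2l1 were both at 0.01. Stat3 was then at -0.19. Lifr in the double KO was at 4.36 CPM, the lowest of the 11 libraries.

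**Figure D4:**
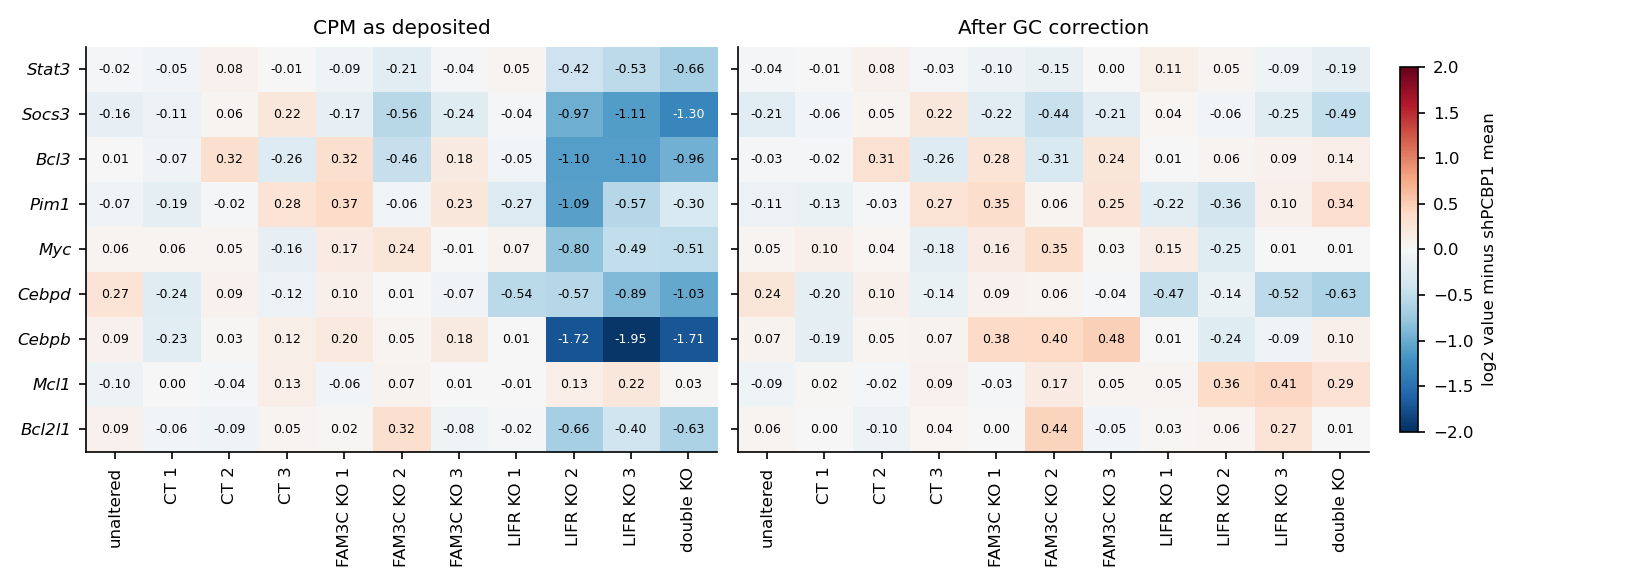
Log2 value minus the mean of the 4 shPCBP1 lines for each member and library of Dataset 1, from the deposited CPM (left) and after GC correction (right). On the left Cebpb was at -1.72 and -1.95 in LIFR KO clones 2 and 3 and on the right at -0.24 and -0.09. Cebpd in LIFR KO clones 1, 2 and 3 was at -0.54, -0.57 and -0.89 on the left. On the right it was at -0.47, -0.14 and -0.52 in the same order.

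FAM3C KO and LIFR KO were then set against each other, which tests whether the knockouts differed. Of the 9 members 2 were higher in FAM3C KO, where 6.83% of all genes passed as higher. Pim1 was 0.83 ± 0.216 higher on the log2 scale (limma adjusted p = 0.0545, range over 19 alternatives 0.00282 to 0.248). Cebpd was 0.68 ± 0.175 higher (limma adjusted p = 0.0536, range over 19 alternatives 0.00748 to 0.215). With LIFR KO clones 2 and 3 left out together the differences were 0.45 for Pim1 and 0.55 for Cebpd, neither past the threshold (limma adjusted p = 0.248 and 0.163). Both, and Cebpb, did not overlap between the groups, and 16.1% of all genes were likewise higher without overlap. An exact two-sided permutation test of 3 against 3 cannot give a p under 0.1, and gave 0.1 for each of the 3. Without LIFR KO clone 1, 8 members were higher, among 37.2% of all genes. After the GC correction Cebpb alone was past the threshold, at 0.52 ± 0.0892 (adjusted p = 0.0658, range over 19 alternatives 5.58e-05 to 0.594), where 0.325% of genes passed as higher. The sign of the Stat3 difference turned from 0.19 to -0.10 and that of Socs3 from 0.38 to -0.20 with the correction.

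**Figure D5:**
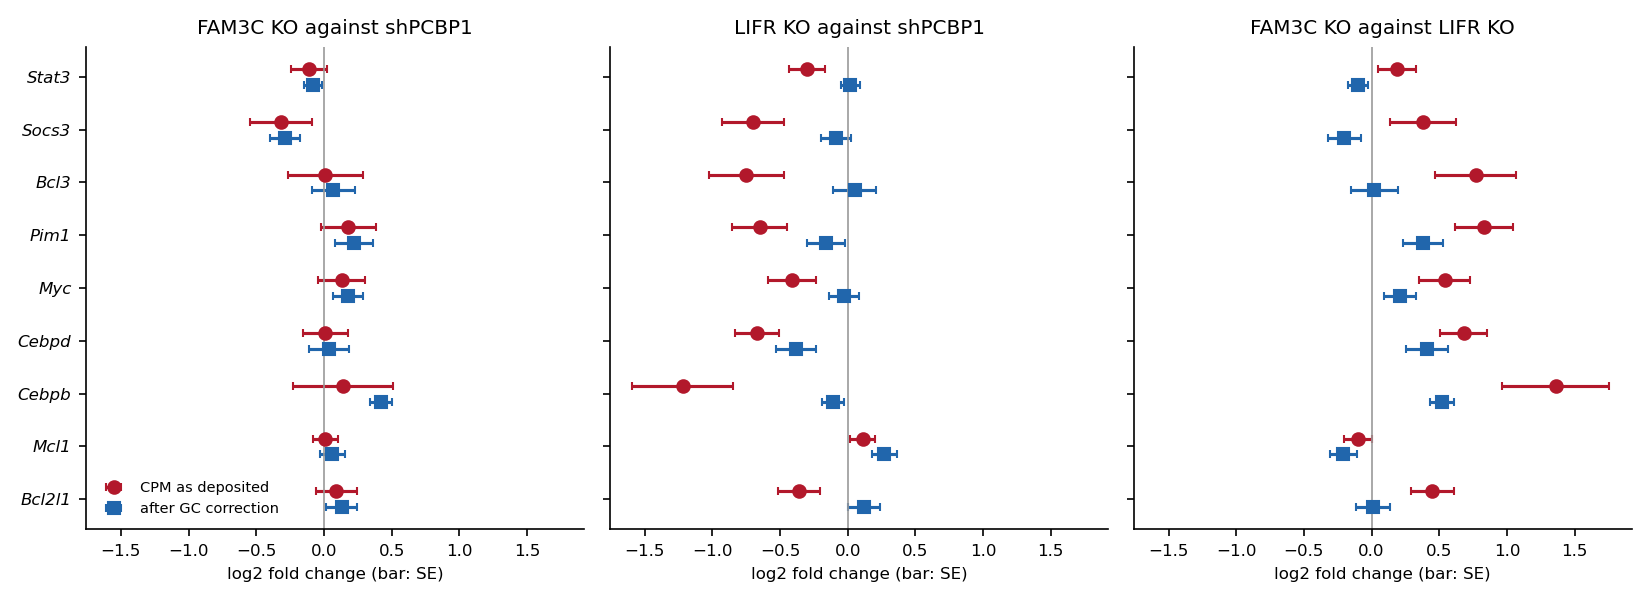
Log2 fold changes of the 9 members in the 3 comparisons of Dataset 1, from the deposited CPM (circles) and after GC correction (squares), with bars for the SE. In LIFR KO against shPCBP1, Cebpb moved from -1.22 to -0.11 and Socs3 from -0.70 to -0.09, whereas in FAM3C KO against shPCBP1 Socs3 was at -0.32 and -0.29.

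Among the pathway genes, LIFR KO against shPCBP1 gave 1 higher and 11 lower of 92 tested, where 0.911% of all genes were higher and 5.55% lower, and none after the GC correction. Klf4, a STAT3 response gene and epithelial transcription factor, measured 38.6, 34.2 and 50.2 CPM in the LIFR KO clones in order and 73.7 to 111.8 CPM in shPCBP1 lines, so that clone 1 was low as well. Its log2 difference was -1.19 ± 0.17 (limma adjusted p = 0.0236) and -0.75 after the correction (adjusted p = 0.121). Socs1, a relative of Socs3, measured 1.40, 0.707 and 0.6004 CPM in the LIFR KO clones and 1.51 to 2.50 CPM in shPCBP1 lines (log2 difference -1.12 ± 0.288, limma adjusted p = 0.0592). These LIFR KO values rest on 26, 17 and 14 reads. Socs2, which mainly restrains growth hormone signalling, was the gene that was higher, at 31.9, 32.9 and 19.5 CPM against 13.0 to 18.9 CPM (log2 difference 0.80 ± 0.216, limma adjusted p = 0.0668). Mmp2 was at 0.376 to 0.686 CPM in LIFR KO clones, and so was lower than every shPCBP1 line, as in FAM3C KO (log2 difference -2.76 ± 0.727, limma adjusted p = 0.0616). The values in clones 1 to 3 rest on 7, 13 and 16 reads, and the shPCBP1 lines themselves ran from 1.07 to 12.85 CPM. Of all genes, 13.2% were likewise lower in LIFR KO without overlap.

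Between the knockouts, 9 of 92 pathway genes were higher in FAM3C KO and 1 was lower, where 6.83% of all genes were higher and 1.45% lower. Socs1 differed by 1.48 ± 0.308 (limma adjusted p = 0.0387), Ptpn6, a phosphatase that acts on Janus kinases, by 1.56 ± 0.356 (adjusted p = 0.0432), and Relb, an NF-kB subunit, by 1.28 ± 0.345 (adjusted p = 0.0593). Pias2, of the inhibitors of activated STATs, was lower in FAM3C KO by a log2 difference of -0.67 ± 0.183 (limma adjusted p = 0.0623). After the GC correction 1 of the 92 was past the threshold, and none of these 4 was.

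For likeness of pattern, every gene of Dataset 1 was correlated with Stat3 and with Socs3 over the 8 libraries without the marked GC relation. Stat3 ran from 55.9 to 68.5 CPM in these, a narrow range. Among 12599 genes the closest to Stat3 were Creb3l2 (Pearson's r 0.98), Tubgcp2 (0.97) and Dscc1 (0.96). The closest to Socs3 were Cdc42ep2, Mrpl14 and Epb41l1, each at 0.98. With all 11 libraries the r of Dscc1 with Stat3 was -0.09 and that of Tubgcp2 0.97, so the order depends on which libraries are used. Stat3 and Socs3 themselves had an r of 0.82 over the 8 libraries, the highest of Stat3 with any member. The r of Stat3 was 0.54 with Bcl3, -0.11 with Cebpb, -0.18 with Pim1 and -0.26 with Cebpd. It was -0.27 with Mcl1, -0.58 with Myc and -0.79 with Bcl2l1, so over these 8 libraries the members did not vary together. With all 11 libraries, those with the marked GC relation included, the r of Stat3 was 0.97 with Socs3 and 0.90 with Bcl3. There it was 0.92 with Cebpb, 0.80 with Cebpd, 0.77 with Myc, 0.75 with Bcl2l1, 0.61 with Pim1 and -0.57 with Mcl1. With 8 or 11 points and this many genes, such values are a description.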

How the data were processed

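Total RNA was depleted of rRNA, made into stranded libraries and sequenced as paired ends for Dataset 1. Per the labels and the study's methods, reads were aligned to GRCm38 with Bowtie2 in Partek Flow. The same steps are not stated separately for Dataset 2. The authors deposited CPM per gene, and for Dataset 2 also group means and a ratio of those means made by the authors, which were not used. Listed genes hold 70.4% to 78.7% of the CPM total per library in Dataset 1 and 41.2% to 41.6% in Dataset 2, so some counted reads lie outside the listed genes. Dataset 2 holds 0.0001 where a gene was at 0. In Dataset 1, 90.5% to 92.8% of values up to 20 reads lay within 0.1 of a whole multiple of the library's lowest step. The rest were fractional, so the values were not treated as counts and no count model was run. No value is below 1 read, so 0 and 1 read cannot be told apart there.

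Values were tested as log2(CPM + 0.1) with limma 3.58.1 (trend) in R 4.3.3 on genes averaging 0.5 CPM or more, with Benjamini-Hochberg adjustment over all genes and a threshold of 0.07. A fold change is on this scale, which understates changes of low genes. The 3 groups of Dataset 1 were fitted together and Dataset 2 apart. For the GC correction, each library's deviation was regressed on GC content by loess (span 0.3) and the fitted trend removed. Gene positions, exon lengths and GC content came from GENCODE M21. The fit was tested on simulated data. The members, gene lists, tests and motifs were chosen with earlier results of these data known. Named pathway genes were the 3 largest increases and decreases past the threshold in each comparison among genes reaching 1 CPM. Levels per kb use the union of annotated exons. Alternatives were the pseudocount, filter, rescaling, GC correction, threshold, replicate block, grouping and leaving out each library.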

Additional observations from a re-analysis of the deposited data

Results flagged for a closer look

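Myc in CT clone 3 was at 131.6 CPM, while the other 3 shPCBP1 lines were at 152.3 to 153.8 CPM. The gap to the nearest line was 0.93 of the whole range of the group, which is beyond Dixon's limit for 4 samples. Chance alone passes that limit in about 1 of 20 groups, and 9 members were looked at.

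Pim1 and Cebpd differed between FAM3C KO and LIFR KO in the test of the difference itself, by 0.83 and 0.68 on the log2 scale. For Pim1 this came from values of 12.66 to 17.01 CPM in FAM3C KO against 6.11 to 10.9 CPM in LIFR KO, and for Cebpd from 6.37 to 7.17 CPM against 3.56 to 4.57 CPM. After the GC correction the differences were 0.38 and 0.41 and did not pass the threshold (limma adjusted p = 0.191 and 0.176), and the GC relation moved with LIFR KO clones 2 and 3. Its part in these differences was examined only by that correction and by leaving out LIFR KO clones 2 and 3, as given above.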

How the results depend on the processing

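In Dataset 2 the count of members past the threshold was 8, and 7 to 8 when each library was left out in turn. It fell to 2 when a fold of at least 1.5 was also asked for. In FAM3C KO against shPCBP1 the count stayed at 0 under all alternatives except the GC correction, which gave 1. In LIFR KO against shPCBP1 the count of 1 fell to 0 with median-ratio rescaling, the GC correction, the replicate block, both together, the 2 groups fitted alone, LIFR KO clones 2 and 3 left out together and an adjusted p under 0.05. It ran from 0 to 8 when each library was left out, reaching 8 without LIFR KO clone 1. In FAM3C KO against LIFR KO the count of 2 became 1 with median-ratio rescaling and with the GC correction. It became 0 with the replicate block, with the block and GC correction together, with the 2 groups fitted alone, with LIFR KO clones 2 and 3 left out together and with an adjusted p under 0.05. It ran from 0 to 8 when each library was left out. The cause of these losses was not tested.

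Of 594 log2 fold changes of members under alternatives, 503 kept sign and side of the threshold, 45 lost the call, 17 gained it and 29 changed sign. With the GC correction LIFR KO minus shPCBP1 became 0.02 for Stat3, 0.05 for Bcl3 and 0.12 for Bcl2l1, and 0.01, 0.04 and 0.14 when the block was added. FAM3C KO minus LIFR KO became -0.10 for Stat3 and -0.20 for Socs3, with and without the block. With LIFR KO clones 2 and 3 left out together, LIFR KO minus shPCBP1 was 0.05 for Stat3, 0.07 for Myc, 0.01 for Cebpb and -0.01 for Mcl1, and FAM3C KO minus LIFR KO was -0.16 for Stat3, -0.28 for Socs3 and 0.02 for Mcl1. In FAM3C KO against shPCBP1, leaving out each library gave -0.14 to 0.25 for Bcl3, -0.06 to 0.10 for Cebpd, -0.02 to 0.05 for Mcl1 and -0.03 to 0.17 for Bcl2l1, and the replicate block gave -0.02 for Mcl1.

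Counts over all genes moved more. FAM3C KO against shPCBP1 gave 39 genes, but 12 at a mean of at least 2 CPM, 15 with the block, 8 with block and GC correction, 237 with the GC correction, 1060 without LIFR KO clones 2 and 3, 1048 fitted alone and 3 to 359 leaving out a library. LIFR KO against shPCBP1 gave 816 (115 higher, 701 lower), but 467 (180 and 287) rescaled, 10 with the block, 44 with the GC correction, 3 with both, 281 without clones 2 and 3, 35 alone, 359 at 0.05 and 5 to 7234 leaving out a library. FAM3C KO against LIFR KO gave 1045 (862 and 183), rescaled 817 (495 and 322), 0 with the block, 74 with the GC correction, 0 with both, 0 alone, 587 at 0.05 and 1 to 6673 leaving out a library. Dataset 2 gave 9123, and 3543 with the 1.5-fold limit.

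The replicate numbers did not pair the libraries: deviations of same-numbered libraries correlated between -0.19 and 0.15 across genes, so the block tests only a shared number. Where leaving out a library left 1 in a group, its spread was taken from the other groups. Depth was not known for Dataset 2, so the counting error of low values such as Cebpd in its controls could not be given.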
